A study of Mus musculus with 7 samples.

Results

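Accessible sites on mouse chromosome 16 that start at 40 Mb or beyond were described in regulatory T (Treg) cells with and without Opa1. The deposited peak table held 1123 such sites among 50213 in all, and a further 877 lay on chromosome 16 below 40 Mb. The boundary was chosen by the calls and p-values of Opa1 KO against WT in these same libraries, so every difference between the genotypes given here describes the region and tests nothing about it. The first distal peak started at position 42164977 and the last ended at 97962905 (mm10). No peak of the table lay between 38902784 and 42164977, so a gap in the table separated the peaks on either side of the boundary.

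Accessibility was measured by ATAC-seq, which uses a transposase to cut and tag DNA where chromatin is open. The 3 Opa1 KO libraries came from CD45.2+ Treg cells with the Foxp3CreOpa1fl/fl genotype, in which a Foxp3-driven Cre removes floxed Opa1 sequence in Foxp3-expressing cells. The 4 WT libraries came from CD45.2+ Treg cells of Foxp3Cre donors, which carry the same Cre and the same YFP reporter of Foxp3. In both groups the donor marrow was mixed 1:1 with CD45.1+ marrow in chimeras, and CD4+ Foxp3-YFP+ cells free of CD45.1 were sorted from the spleen. Not given in the sources used here were the age and sex of the mice, the host strain and the time after transfer. The strain background of the Opa1fl/fl line and the Opa1 exons flanked by loxP sites were not given either. Opa1 itself lies on chromosome 16, from 29579281 to 29663127. Loss of Opa1 cannot be told apart here from other differences between the donor lines. Whether each library came from 1 mouse is not stated either, so the spread between libraries may be partly technical. In bulk libraries, fewer cells with an open site and less opening per cell cannot be told apart.

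Opa1 is a dynamin-like GTPase of the mitochondrial inner membrane that fuses inner membranes and keeps cristae narrow. Treg cells use enhancers and promoters whose accessibility is set by lineage and activation factors, and a single gene can be served by many intergenic or intragenic sites that open independently of its promoter. Distal mouse chromosome 16 holds a run of T cell surface receptors (Tigit, Btla, Cd200, Cd96), the interferon and interleukin-10 receptor cluster, transcription factors such as Nrip1, Bach1, Runx1 and Ets2, and 2 conserved microRNA loci. Its last part carries the genes that correspond to the human chromosome that is trisomic in Down syndrome.

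The region encoded 15 microRNA genes with 22 mature products in RefSeq (GRCm38.p6). 4 of the mature sequences are shown because the called peaks with the largest gains lay beside the miR-125b-2 gene or within the host gene of its cluster, which also holds miR-99a and let-7c, and because miR-155 is the lymphocyte microRNA of the same chromosome. Capitals mark the seed, bases 2 to 8 from the 5′ end, which pairs with targets.
mmu-miR-99a-5p: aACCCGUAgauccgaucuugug
mmu-let-7c-5p: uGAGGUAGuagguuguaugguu
mmu-miR-125b-5p: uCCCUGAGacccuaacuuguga
mmu-miR-155-5p: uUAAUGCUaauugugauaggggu
The 4 seeds differed, so these microRNAs belong to 4 seed families. The Mir99a hairpin lay from 77598936 and the Mirlet7c-1 hairpin from 77599657, both farther along the chromosome than the end of the host gene Mir99ahg (chr16:77329328-77558428), and Mir125b-2 lay at chr16:77646273-77646343. Mir155 lay farther on, within its host gene Mir155hg, and a peak of the table covered its hairpin.

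Promoter windows are shown for the genes whose promoter peaks had the clearest separation of the genotypes by p-value (Zdhhc23, Btg3 and the shared Cryzl1 and Itsn1 peak) and for Nrip1, whose promoter peak differed little while peaks within the gene did. They were chosen after their values were seen. Each runs from 250 bases before the start to 50 after it, 5′ to 3′ on the gene's strand, from RefSeq (GRCm38.p6), and lay whole inside its peak. Capitals mark exact matches on either strand to CACGTG (the E-box of bHLH factors), CCGGAAG (an ETS core), TGTGGT (a RUNX core), GGGCGG (the GC box) or CCAAT.
Zdhhc23, chr16:43979760-43980059, minus strand: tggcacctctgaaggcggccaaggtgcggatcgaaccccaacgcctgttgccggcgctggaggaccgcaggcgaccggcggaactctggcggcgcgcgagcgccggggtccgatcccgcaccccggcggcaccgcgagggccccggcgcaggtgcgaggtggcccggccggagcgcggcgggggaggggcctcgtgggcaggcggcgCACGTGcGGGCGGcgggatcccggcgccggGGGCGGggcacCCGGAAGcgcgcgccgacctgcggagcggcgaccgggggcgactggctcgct
Btg3, chr16:78376761-78377060, minus strand: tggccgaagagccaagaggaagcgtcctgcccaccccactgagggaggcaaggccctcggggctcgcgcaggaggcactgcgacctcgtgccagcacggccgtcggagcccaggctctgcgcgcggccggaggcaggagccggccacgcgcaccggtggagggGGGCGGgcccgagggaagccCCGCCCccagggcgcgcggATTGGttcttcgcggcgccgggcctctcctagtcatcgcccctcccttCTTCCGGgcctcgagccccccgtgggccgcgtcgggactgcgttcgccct
Cryzl1, chr16:91728753-91729052, minus strand: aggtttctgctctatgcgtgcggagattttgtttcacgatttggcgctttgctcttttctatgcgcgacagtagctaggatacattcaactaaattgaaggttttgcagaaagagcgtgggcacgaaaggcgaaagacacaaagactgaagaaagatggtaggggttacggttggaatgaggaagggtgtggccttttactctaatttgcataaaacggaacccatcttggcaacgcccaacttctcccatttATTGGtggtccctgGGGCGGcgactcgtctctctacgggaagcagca
Itsn1, chr16:91729121-91729420, plus strand: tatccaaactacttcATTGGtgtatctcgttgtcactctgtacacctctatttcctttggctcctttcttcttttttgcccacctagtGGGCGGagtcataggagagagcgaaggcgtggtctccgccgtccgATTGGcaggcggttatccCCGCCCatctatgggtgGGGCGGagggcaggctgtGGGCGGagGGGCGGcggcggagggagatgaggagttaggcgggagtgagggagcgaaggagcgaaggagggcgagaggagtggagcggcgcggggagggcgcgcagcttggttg
Nrip1, chr16:76373000-76373299, minus strand: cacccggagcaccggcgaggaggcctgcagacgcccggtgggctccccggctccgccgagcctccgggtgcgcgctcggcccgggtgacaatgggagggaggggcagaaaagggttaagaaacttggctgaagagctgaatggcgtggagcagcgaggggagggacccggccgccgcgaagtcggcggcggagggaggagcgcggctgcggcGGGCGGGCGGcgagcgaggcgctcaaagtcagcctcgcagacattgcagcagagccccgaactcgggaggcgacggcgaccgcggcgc
Zdhhc23, which encodes a palmitoyltransferase, held 1 E-box, 1 ETS core and 2 GC boxes. Btg3, an antiproliferative gene, held 1 ETS core, 2 GC boxes and 1 CCAAT match. Cryzl1 held 1 GC box and 1 CCAAT match, and Itsn1, whose start faces away from it under the same peak, held 5 GC boxes and 2 CCAAT matches. The Nrip1 window held 2 GC boxes that overlap, and none of the 5 windows held TGTGGT. The share of G and C was 80.7% in the Zdhhc23 window, 75.7% in Btg3, 73.3% in Nrip1, 61.7% in Itsn1 and 48.3% in Cryzl1. Among all 32851 RefSeq promoter windows, 7.15% held CACGTG, 8.86% CCGGAAG, 16.8% TGTGGT, 35.7% GGGCGG and 37.4% CCAAT. Among the 502 windows of the distal region the shares were 6.37%, 9.56%, 23.9%, 26.1% and 38.0% in the same order, so the region's promoters held TGTGGT more often and the GC box less often than all promoters, as a description without a test.

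The distal peaks were like the rest of the table in size but lay less often at promoters. Their median width was 318 bp, against 319 bp over all peaks. A RefSeq promoter window was overlapped by 130 of them (11.6%), against 20.4% of the chromosome 16 peaks below 40 Mb and 17.6% of the peaks on other chromosomes. Of the 1123, 768 touched a gene, 639 of them a protein-coding one, 345 lay within 100 kb of the nearest gene and 10 had no gene within that distance. Peaks were assigned to 245 genes by this rule, and whether a peak lay in an exon or an intron was not assigned.

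The filter on low counts kept 908 of the 1123 peaks (80.9%), against 75.8% of all peaks, and these served 225 genes. The 215 peaks it removed had no count above 24 in any library and a median mean count of 6, against 29.1 for the tested ones. Among these 215 peaks, 10 were higher in all Opa1 KO libraries than in all WT libraries and 10 were lower in all. Over all tested peaks, 4.85% were higher in this way and 4.51% lower. No tested peak was empty in all libraries of a genotype. Levels are given below as CPM, a peak's counts scaled to a common library total after TMM, a scaling by the trimmed mean of ratios between libraries.

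The share of each library's counts that fell in the region hardly separated the genotypes. It was 2.683%, 2.808% and 2.729% in the Opa1 KO libraries, against 2.661%, 2.69%, 2.707% and 2.601% in the WT libraries, and the ranges overlapped. The median log2 fold change (Opa1 KO over WT) of the tested distal peaks was 0.04, against -0.00 over all 38041 tested peaks, and 508 of the 908 were above 0. The SD of the distal log2 fold changes, given below, was larger than that of the other chromosomes. Calls and p-values of these same peaks chose the region, so nothing is read from this width.

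A peak is called here when edgeR's quasi-likelihood test, fitted to all tested peaks with Benjamini-Hochberg adjustment, gave an adjusted p under 0.05. In the region 13 peaks were called (1.43% of the tested ones), against 0.0867% of all tested peaks, or 33 peaks. Of these 13, 6 were higher and 7 lower in Opa1 KO, against 0.0473% and 0.0394% of all tested peaks. Since this contrast chose the region, nothing is read from these shares. The 13 became 6 without Opa1 KO replicate 1 and 9 without Opa1 KO replicate 3, and the 33 became 15 and 16. The genotypes did not overlap in any library at 119 of the 908 peaks (13.1%), 75 with Opa1 KO above WT and 44 with Opa1 KO below WT, beside 9.36% of all tested peaks (4.85% above and 4.51% below). An unadjusted p under 0.05 was found at 135 distal peaks (14.9%), beside 9.47% of all tested peaks, and one under 0.01 at 66 (7.27%), beside 2.76%.

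The SD of the log2 fold change was 0.53 among distal peaks, 0.382 among the 675 tested chromosome 16 peaks below 40 Mb and 0.401 among the 36458 peaks outside chromosome 16. On the other 19 chromosomes this SD ran from 0.377 to 0.434. Without the stretch from 70 to 80 Mb, the distal SD was 0.459 and the median absolute log2 fold change was 0.239. Over all tested peaks these values were 0.404 and 0.222. The larger distal SD thus rested in part on that stretch, and the median size of a change differed little. A change of over 2-fold in either direction was fitted at 53 distal peaks (5.84%), against 2.44% of the peaks outside chromosome 16. Within genotypes the spread was alike: the median within-genotype SD of log2 CPM was 0.359 at distal peaks and 0.357 outside chromosome 16. The median tagwise dispersion, edgeR's estimate of squared biological variation per peak, was 0.0404 and 0.0418. Depth was alike too, with a median mean count of 29.1 at distal peaks and 27.4 outside chromosome 16. The part of these features in the wider distribution of distal fold changes was not tested.

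**Figure D1:**
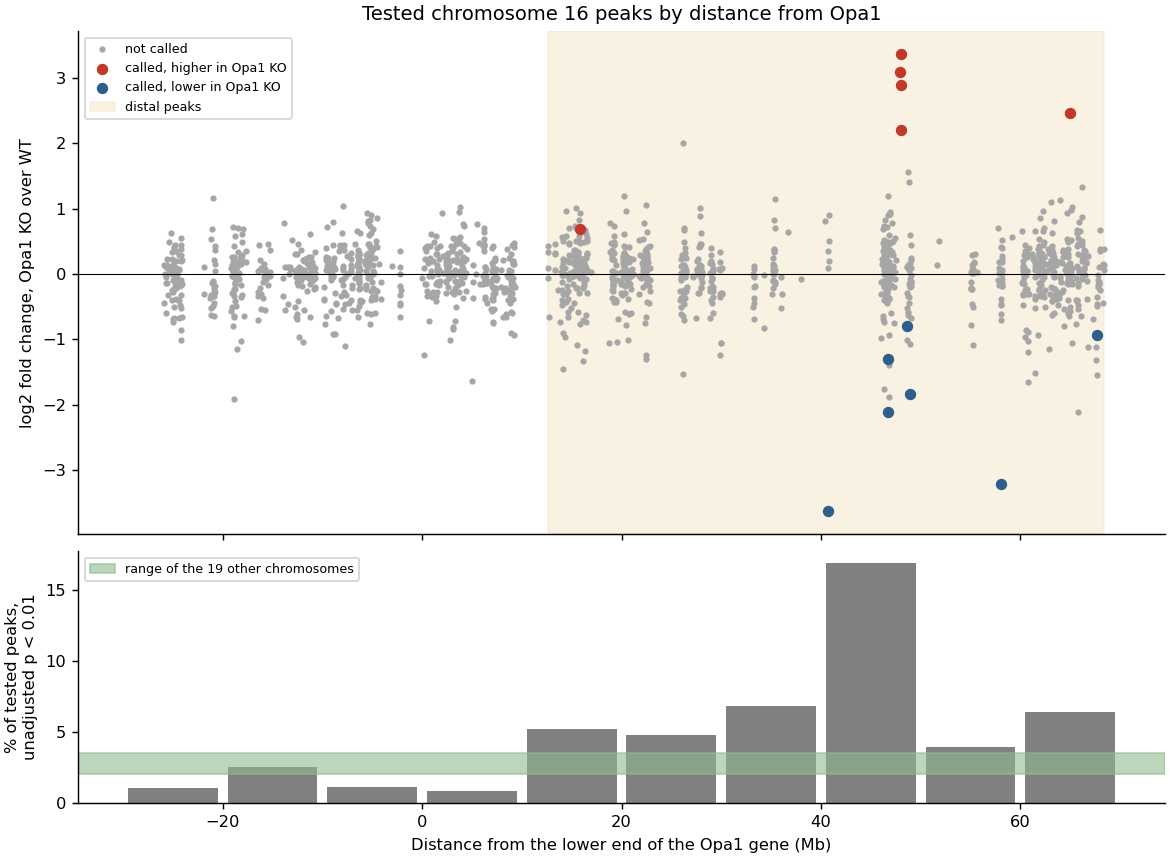
Top, log2 fold change (Opa1 KO over WT) of every tested chromosome 16 peak against its distance from the lower end of the Opa1 gene in Mb, with called peaks in red (higher in Opa1 KO) and blue (lower) and the distal peaks shaded. Bottom, the share of tested peaks with an unadjusted p under 0.01 in 10-Mb bins, with the range of the 19 other chromosomes in green. Called peaks lie only in the shaded part, and the tallest bar, at 40 to 50 Mb from Opa1, reaches 16.9%.

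Along the chromosome, peaks below 40 Mb and peaks beyond it differed in their share of low p-values. The share with an unadjusted p under 0.01 was 1.01% of 99 peaks from 0 to 10 Mb, 2.38% of 168 from 10 to 20 Mb, 1.16% of 173 from 20 to 30 Mb and 0.851% of 235 from 30 to 40 Mb, a stretch that starts beside the Opa1 gene. It was 4.39% of 205 peaks from 40 to 50 Mb, 5.42% of 203 from 50 to 60 Mb and 7.5% of 40 from 60 to 70 Mb. It reached 16.9% of 142 peaks from 70 to 80 Mb, then stood at 2.86% of 70 from 80 to 90 Mb and 6.85% of 248 from 90 Mb to the end. On the other 19 chromosomes, whole, the share ran from 2.0% to 3.48%. Every 10-Mb bin beyond 40 Mb but that from 80 to 90 Mb lay above that range. Every bin below 40 Mb but that from 10 to 20 Mb lay below it. These p-values chose the boundary, and a bin holds fewer peaks than a whole chromosome, so nothing is read from this comparison.

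The stretch from 70 to 80 Mb held 9 of the 13 called peaks, 4 higher and 5 lower, and its log2 fold changes had an SD of 0.816. Within it, 4 of the 8 tested peaks from 77 to 78 Mb were called, beside 0.0867% of all tested peaks. At 5 of the 8, all Opa1 KO libraries were above all WT libraries, beside 4.85% of all tested peaks. Both directions were present next to each other: the called peaks of 76 to 77 Mb and of 78 to 79 Mb were all lower in Opa1 KO (2 in each), and those between them were all higher. Without the 70 to 80 Mb stretch, 766 distal peaks remained, of which 4 were called (0.522%) and 5.48% had an unadjusted p under 0.01. That share, too, was above the range of the other chromosomes, and nothing is read from it, since these p-values chose the region.

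Promoter peaks of the region spread less than its other peaks, as promoter peaks did over the whole table. None of the 126 tested promoter peaks was called, 3 of them had an unadjusted p under 0.01 (2.38%), and their log2 fold changes had an SD of 0.235. Of the 782 other tested distal peaks, 13 were called, 8.06% had an unadjusted p under 0.01 and the SD was 0.563. Over all 38041 tested peaks these shares were close, 2.65% at 8301 promoter peaks and 2.79% at 29740 others, and the SDs were 0.284 and 0.431. Promoter peaks were also deeper, with a median mean count of 104 against 24.6 at the other distal peaks, so the 2 kinds differ in depth as well as in position. Distal peaks were also split by mean count: under 20, from 20 to 50 and 50 or more. Their shares with an unadjusted p under 0.01 were 6.35%, 7.84% and 7.67% in that order. Outside chromosome 16 the shares were 1.68%, 2.44% and 4.18%. The part of depth in these shares was not tested. Changes of over 2-fold were found at 38 distal peaks with a mean count under 20 and at none of the 287 with 50 or more.

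The largest gains lay upstream of Mir125b-2, which encodes a microRNA that acts on haematopoietic and T cell differentiation. The middle one of 3 neighbouring peaks (chr16:77644379-77644717, 1556 bp before the gene) had 30.2, 34.1 and 27.0 CPM in the Opa1 KO libraries, against 6.30, 2.71, 2.41 and 4.22 CPM in the WT libraries. The lowest Opa1 KO library was thus well above the highest WT library, and the log2 fold change was 2.89 (SE 0.324). The nearest peak (chr16:77645009-77645315, 958 bp before the gene) had 15.4, 16.4 and 12.9 CPM in Opa1 KO, against 2.91, 0, 1.20 and 1.054 CPM in WT, a log2 fold change of 3.37 (SE 0.501). In the WT libraries this site was at or near the detection limit, with counts of 6, 0, 2 and 2.

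The farthest of the 3 (chr16:77643867-77644139, 2134 bp before the gene) had 17.3, 20.2 and 6.47 CPM in Opa1 KO, against 0.969, 4.06, 3.61 and 4.22 CPM in WT (log2 fold change 2.21, SE 0.441). Opa1 KO replicate 3 was low here, though still above every WT library. Within Mir99ahg, the noncoding gene that hosts microRNAs of this cluster, a peak at chr16:77499862-77500243 had 16.02, 8.85 and 11.9 CPM in Opa1 KO, against 0.969, 2.71, 0 and 2.11 CPM in WT (log2 fold change 3.09, SE 0.531). All 4 sites were higher in every Opa1 KO library than in any WT library. The Mir99ahg call and that of the farthest of the 3 were lost without Opa1 KO replicate 1, and the second also without WT replicate 1 or Opa1 KO replicate 2. No tested peak lay nearer than 44117 bp to Mirlet7c-1 or 44867 bp to Mir99a.

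The next tested sites below the cluster belonged to Usp25, a deubiquitinase gene, and to the noncoding 1700041M19Rik beside it. A peak within Usp25 (chr16:77016052-77016360) had its middle 2137 bp from the nearest RefSeq start of the gene. It had 51.8, 49.3 and 48.0 CPM in Opa1 KO, against 32.9, 35.2, 32.5 and 35.8 CPM in WT (log2 fold change 0.55, SE 0.173). The genotypes did not overlap there, and the peak was not called. At the Usp25 promoter peak from 77013398 the genotypes overlapped, with a log2 fold change of 0.04. None of the 4 tested sites below the cluster was called.

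At the other microRNA locus the genotypes overlapped. The peak over the Mir155 hairpin (chr16:84714003-84714243) had 11.4, 15.8 and 10.8 CPM in Opa1 KO, against 10.7, 13.5, 10.8 and 6.32 CPM in WT (log2 fold change 0.29, SE 0.34). The peak of its host gene Mir155hg at 84713036 had 71.5, 68.9 and 57.2 CPM in Opa1 KO, against 92.0, 65.0, 69.3 and 82.2 CPM in WT, a log2 fold change of -0.23. Only 3 of the 15 microRNA genes of the region had a tested peak within 1 kb.

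**Figure D2:**
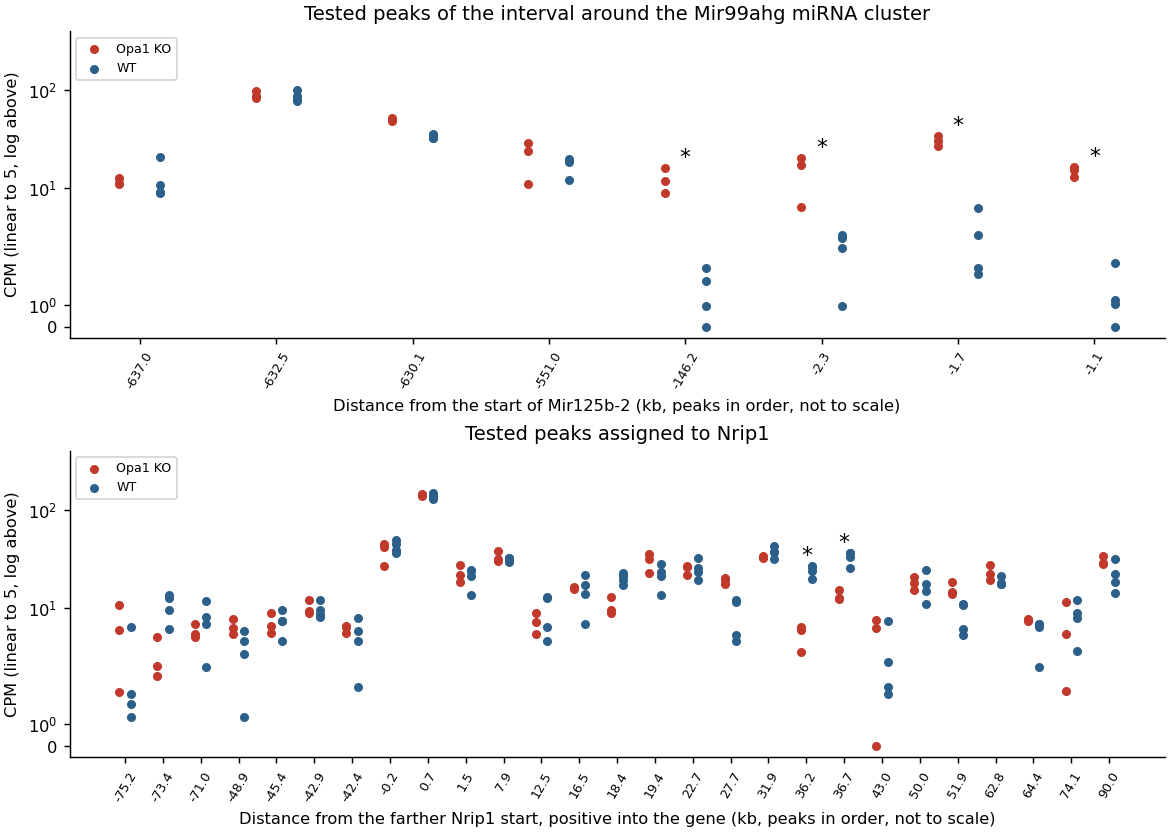
CPM of every library (red, Opa1 KO; blue, WT) at the tested peaks from 77 to 78 Mb, in order of distance from Mir125b-2 (top), and at the tested peaks assigned to Nrip1, in order of distance from the gene's farther start (bottom), on an axis that is linear to 5 CPM and logarithmic above. Asterisks mark called peaks, which are the 4 nearest Mir125b-2, all higher in Opa1 KO, and 2 neighbouring Nrip1 peaks, both lower.

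Nrip1, which encodes a corepressor of nuclear receptors that also acts on mitochondrial metabolism, had 27 tested peaks and was the gene with most low p-values in the region, 6 under 0.01. The peak at chr16:76337478-76337793 had 5.85, 6.32 and 4.32 CPM in Opa1 KO, against 26.2, 19.6, 26.5 and 23.7 CPM in WT, a log2 fold change of -2.11 (SE 0.318). Its neighbour at chr16:76336924-76337285 had 12.3, 12.6 and 15.1 CPM in Opa1 KO, against 35.9, 36.6, 25.3 and 32.7 CPM in WT (log2 fold change -1.29, SE 0.245). Every Opa1 KO library was below every WT library at both, 36.2 and 36.7 kb into the gene from its farther start. The second call was lost without Opa1 KO replicate 1.

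The Nrip1 promoter peak (chr16:76372892-76373322), whose window is printed above, did not follow them. It had 143, 140 and 138 CPM in Opa1 KO, against 134, 147, 130 and 139 CPM in WT (log2 fold change 0.04, SE 0.099). Other Nrip1 sites went both ways without a call: the peak at 76345876 had 20.03, 18.96 and 17.3 CPM in Opa1 KO against 4.84, 11.5, 12.04 and 5.27 CPM in WT, and the peak at 76355318 had 9.55, 8.85 and 12.9 CPM in Opa1 KO against 20.8, 18.95, 16.9 and 22.7 CPM in WT. Over the 27 peaks, log2 fold changes ran from -2.11 to 1.20, 16 were above 0, 3 had all Opa1 KO libraries above WT and 4 all below, beside 4.85% and 4.51% of all tested peaks. The summed CPM of the gene's peaks was 530 to 556 in Opa1 KO and 539 to 569 in WT, and these ranges overlapped.

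Among the called peaks, those with the lowest Opa1 KO values were a Gbe1 peak and a peak near Bach1. Gbe1 encodes the glycogen branching enzyme, and its peak at chr16:70331843-70332224 had counts of 0, 2 and 4 in the Opa1 KO libraries, against 25, 14, 26 and 23 in the WT libraries (log2 fold change -3.63, SE 0.589). The other 5 tested Gbe1 peaks were all above 0, and the deepest, from 70313838, had a log2 fold change of 0.10. Bach1 encodes a haem-regulated repressor, and a peak 41371 bp from it (chr16:87657356-87657583) had counts of 4, 2 and 0 in Opa1 KO, against 18, 16, 15 and 12 in WT (log2 fold change -3.21, SE 0.679). Most counts in the table were even, as where both mates of a read pair are counted, so 2 counts may stand for 1 fragment. The Bach1 call was lost in each of 3 fits that left out WT replicate 1, 2 or 3, and without Opa1 KO replicate 1 or 3.

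D16Ertd472e, a gene with no role given here, had 18 tested peaks. Its peak at chr16:78547406-78547732 had 8.01, 8.85 and 5.39 CPM in Opa1 KO, against 25.2, 28.4, 28.9 and 24.2 CPM in WT (log2 fold change -1.83, SE 0.292). A peak at chr16:78200338-78200941, 21683 bp from the noncoding gene Gm31613, had 54.8, 54.4 and 42.1 CPM in Opa1 KO, against 95.4, 78.5, 87.3 and 89.1 CPM in WT (log2 fold change -0.79, SE 0.138). Both were lower in every Opa1 KO library, and the second, whose call was lost without Opa1 KO replicate 3, was the most deeply covered of the 13.

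Vps26c, a subunit of the retriever complex that returns cargo from endosomes, held a site that was called higher and a deeper one that was not called. The peak at chr16:94510036-94510367 had 26.5, 13.9 and 15.1 CPM in Opa1 KO, against 1.94, 4.06, 2.41 and 5.27 CPM in WT (log2 fold change 2.47, SE 0.388). The gene's other tested peak, from 94526357, had 124, 128 and 88.5 CPM in Opa1 KO, against 102, 121, 105 and 104 CPM in WT, a log2 fold change of 0.08 with overlapping genotypes. Opa1 KO replicate 1 was the highest library at the called site, and the call was lost without it.

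Cd200 encodes a surface ligand that restrains myeloid cells through the CD200 receptor. Its peak at chr16:45389746-45390183, 19089 bp from the gene's start, had 61.9, 77.1 and 73.9 CPM in Opa1 KO, against 43.6, 39.3, 56.6 and 34.8 CPM in WT (log2 fold change 0.69, SE 0.157). Its start-side peak at 45408837 had 35.1, 43.6 and 35.6 CPM in Opa1 KO, against 31.5, 44.7, 48.8 and 29.5 CPM in WT, and the genotypes overlapped there. The Cd200 call was lost without any 1 library other than WT replicate 3. Dscam encodes a neural adhesion protein, and a peak 32947 bp from it (chr16:97204060-97204562) had 27.1, 35.4 and 28.1 CPM in Opa1 KO, against 41.7, 52.8, 69.9 and 63.2 CPM in WT (log2 fold change -0.93, SE 0.182). All 5 tested peaks assigned to Dscam had a log2 fold change below 0, and the call was lost without WT replicate 3 or 4 or Opa1 KO replicate 1 or 3.

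**Figure D3:**
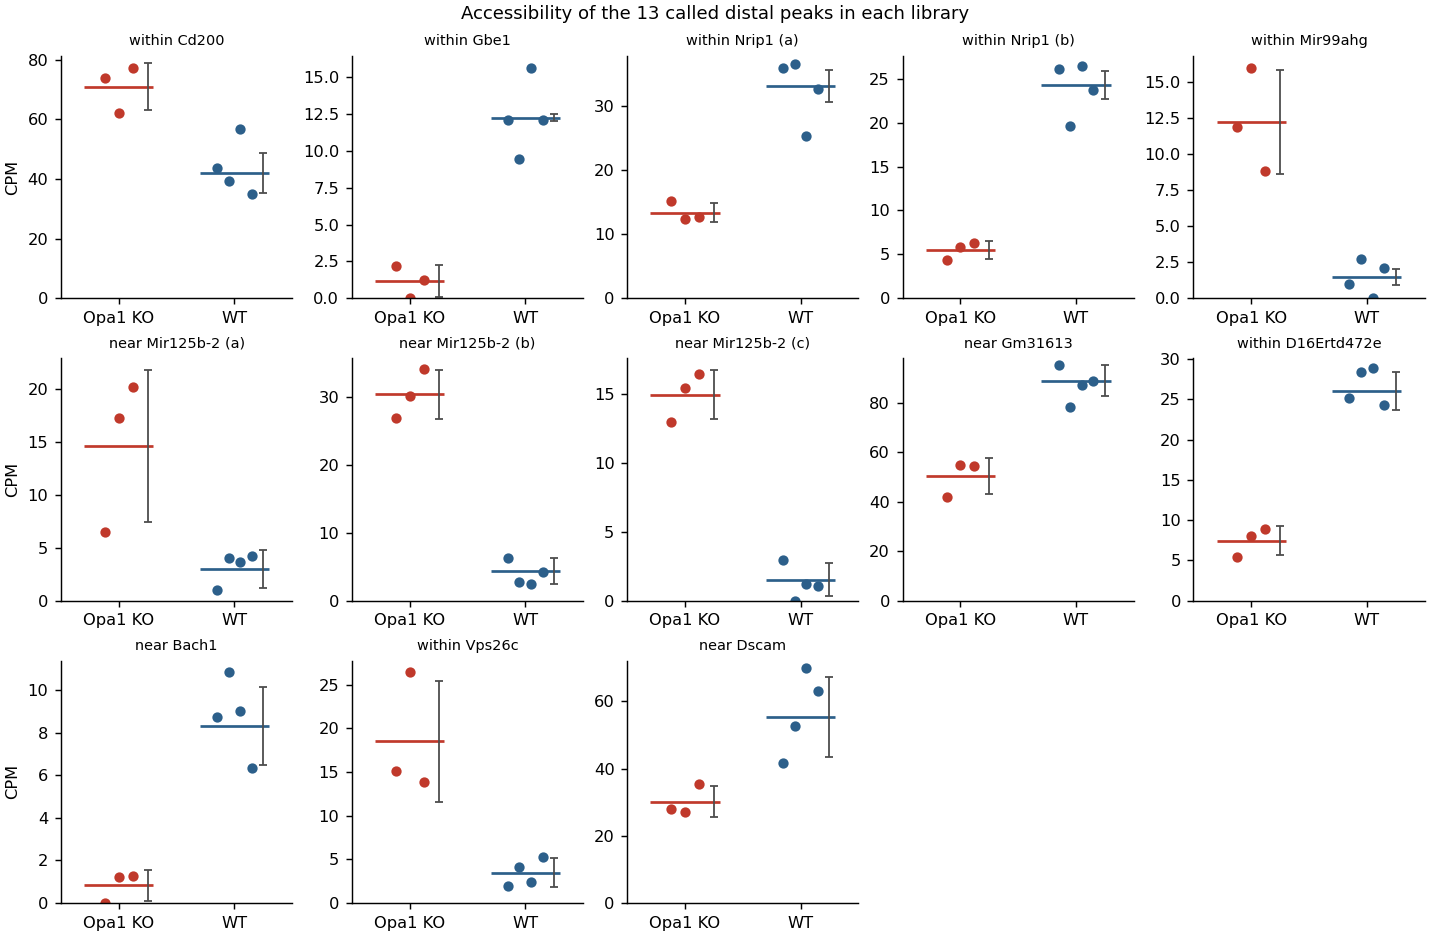
CPM of each library at the 13 called distal peaks in order along the chromosome, Opa1 KO in red and WT in blue, with each mean as a line and its SD as a bar (n = 3 each, WT replicates 2 and 3 averaged to 1); letters number the peaks of 1 gene in that order. In each panel all Opa1 KO points lie on one side of all WT points, above them in 6 panels and below them in 7.

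As means, the called gains ran from 12.2 ± 3.60 CPM in Opa1 KO and 1.48 ± 0.579 CPM in WT at the Mir99ahg peak to 71.0 ± 7.995 CPM in Opa1 KO and 42.1 ± 6.70 CPM in WT at the Cd200 peak (SD, n = 3 each). The called losses ran from 0.832 ± 0.721 CPM in Opa1 KO and 8.33 ± 1.84 CPM in WT near Bach1 to 50.4 ± 7.24 CPM in Opa1 KO and 89.1 ± 6.26 CPM in WT near Gm31613 (SD, n = 3 each). Of the 13, 7 touched a gene and none overlapped a promoter window. WT replicates 2 and 3 were nearly as alike as repeat counts of 1 library, though other pairs were not much less alike. Replicates 2 and 3 enter a WT mean as 1 value, which can narrow the WT SD.

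A further 10 peaks had groups that did not overlap and the smallest p-values short of a call, 6 of them higher in Opa1 KO. The peak 96146 bp from Nfkbiz, which encodes an inducible regulator of NF-kB, had 7.40, 13.3 and 14.6 CPM in Opa1 KO, against 2.91, 2.71, 3.61 and 2.11 CPM in WT (log2 fold change 2.0). The 2 peaks within Filip1l, a filamin-interacting gene, had log2 fold changes of 0.63 and 0.89. Filip1l lies whole inside the longer gene Cmss1, and a peak that touched both was assigned to Filip1l. All 13 tested peaks assigned to Filip1l were above 0, against 2 of the 7 assigned to Cmss1. A peak within Htr1f, a serotonin receptor gene, had 18.5, 25.3 and 23.7 CPM in Opa1 KO, against 10.2, 8.12, 9.64 and 11.6 CPM in WT.

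Cblb, an E3 ligase that limits T cell activation, had 1 of these peaks in each direction. The peak at 52142846 had 58.2, 57.5 and 58.8 CPM in Opa1 KO, against 33.9, 37.9, 37.9 and 39.0 CPM in WT (log2 fold change 0.65). The peak at 52038150, nearer the start of the gene, had 6.16, 11.4 and 3.24 CPM in Opa1 KO, against 20.4, 14.9, 16.3 and 14.8 CPM in WT (log2 fold change -1.30). The remaining 4 were a Spice1 peak with a log2 fold change of 0.46 and peaks assigned to 4932438H23Rik, Dyrk1a and Erg with -1.51, -1.06 and -2.12.

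The promoter peaks with windows shown above differed by less. Zdhhc23 had 49.9, 55.6 and 59.9 CPM in Opa1 KO, against 37.3, 28.4, 43.4 and 35.8 CPM in WT (log2 fold change 0.59, SE 0.171). Btg3 had 95.5, 82.2 and 106 CPM in Opa1 KO, against 116, 121, 137 and 110 CPM in WT (log2 fold change -0.35, SE 0.113). The peak shared by Cryzl1, a quinone oxidoreductase homologue, and Itsn1, an endocytic scaffold, had 161, 168 and 172 CPM in Opa1 KO, against 131, 142, 130 and 142 CPM in WT (log2 fold change 0.29, SE 0.096). The genotypes did not overlap at these 3, and none was called.

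By function, the T cell receptors, ligands and signalling genes of the region had 144 tested peaks over 13 genes. Of them, 1 was called higher (Cd200) and none lower, 84 were above 0 and the median log2 fold change was 0.08, beside -0.00 over all tested peaks. Over all tested peaks, 0.0473% were called higher and 0.0394% lower, and 18958 of 38041 were above 0. In the region, 13 of 908 tested peaks were called, and its count above 0 is given earlier. These figures apply beside every list below. The lists were chosen with earlier results known, so nothing is read from their counts. Tigit, an inhibitory receptor of Treg cells, had 119, 122 and 125 CPM at its promoter peak in Opa1 KO, against 98.8, 96.1, 113 and 106 CPM in WT (log2 fold change 0.24), and the genotypes did not overlap there. Of its 10 tested peaks, 3 were above 0 and none was called. The deepest Cblb peak, at 52031013, had 239, 323 and 256 CPM in Opa1 KO, against 231, 234, 237 and 242 CPM in WT. In Trat1, an adaptor of the T cell receptor, 2 of 16 peaks had Opa1 KO above WT. In Btla, Cd96 and Cd47 no peak separated the genotypes. Over the list's 144 peaks, 9 had all Opa1 KO libraries above WT and 4 all below, beside 4.85% and 4.51% of all tested peaks.

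Cytokine receptor genes were measured at 22 peaks of Ifnar1, Ifnar2, Il10rb and Ifngr2, which bind type I interferon, interleukin-10 family cytokines and interferon gamma. Mx1 and Mx2, interferon-induced antiviral GTPases, had no tested peak. None of the 22 was called, 14 were above 0 and the median log2 fold change was 0.14. A peak 8826 bp from Ifnar1 had 53.3, 37.9 and 49.6 CPM in Opa1 KO, against 31.0, 33.2, 38.5 and 28.5 CPM in WT (log2 fold change 0.54), and the groups overlapped by a narrow margin.

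Transcription and chromatin genes had 149 tested peaks over 20 genes, 3 of them called lower (2 in Nrip1 and 1 near Bach1) and none higher, with 84 above 0 and a median of 0.06. Log2 fold changes ran from -3.21 to 2.0. Runx1, which partners FOXP3 in Treg cells, had a peak at 92644708 with 18.5, 20.9 and 31.3 CPM in Opa1 KO, against 4.84, 6.77, 18.1 and 13.7 CPM in WT (log2 fold change 1.11), and a peak 40802 bp from the ETS factor gene Ets2 had 8.63, 10.1 and 15.1 CPM in Opa1 KO, against 2.91, 5.42, 3.01 and 6.32 CPM in WT. Neither was called. The deepest peak of the region, touching the repressor gene Zbtb20 (chr16:42875059-42876192), had 666, 707 and 796 CPM in Opa1 KO, against 672, 756, 657 and 695 CPM in WT, and did not separate the genotypes.

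Genes of mitochondria and metabolism had 42 tested peaks over 12 genes, with 1 called lower (Gbe1), 23 above 0 and a median of 0.01. The single peaks of Atp5j and Atp5o, subunits of ATP synthase, and Tomm70a, a mitochondrial import receptor, had log2 fold changes of 0.07, 0.26 and 0.06 and were not called. Genes of membrane traffic, autophagy and protein turnover had 43 tested peaks over 14 genes, with 1 called higher (Vps26c), 24 above 0 and a median of 0.03. Their range ran from -1.54, at a peak assigned to the secretase gene Bace2, to 2.47.

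Genes of neural and epithelial adhesion and guidance, which are not part of the Treg programme, had 28 tested peaks over 11 genes. Of them, 1 was called lower (near Dscam) and none higher, 20 of the 28 were below 0, and their median stood at -0.48 on the log2 scale. These peaks were shallow, 17 of 28 with a mean count under 20. Peaks with a mean count under 20 had a median of -0.04 in the whole distal region (315 peaks) and -0.10 outside chromosome 16 (13465 peaks). The part of depth in the list's median was not tested. Cxadr with 6 and Dscam with 5 had the most peaks of the list, and summed Dscam CPM was 45.5 to 48.5 in Opa1 KO and 76.5 to 105 in WT.

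**Figure D4:**
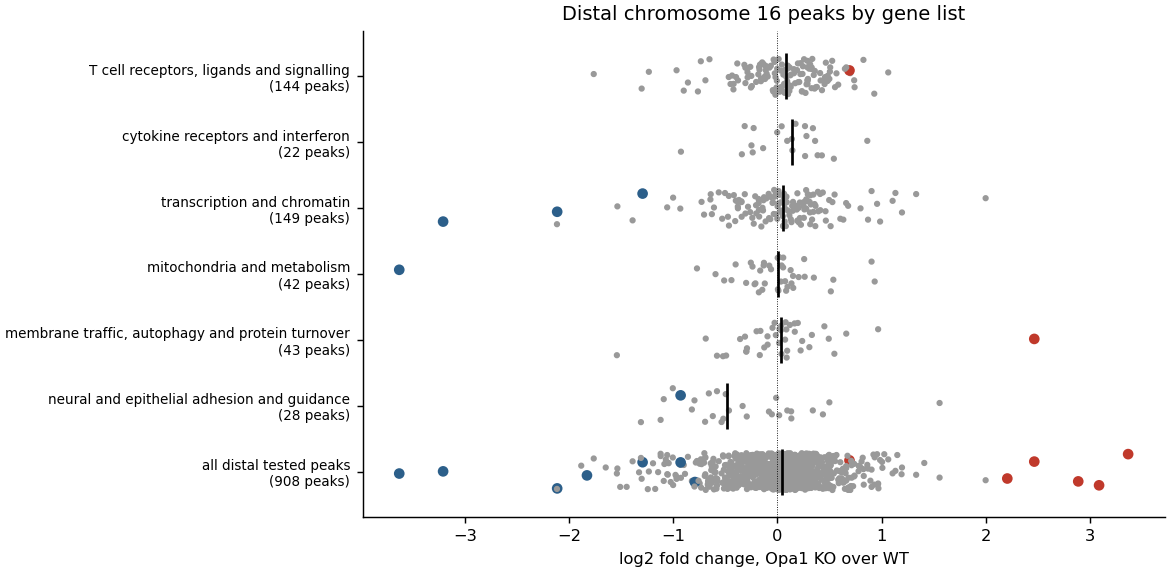
Log2 fold change (Opa1 KO over WT) of the tested distal peaks in each gene list and over all 908, 1 point per peak with vertical jitter, called peaks in red (higher in Opa1 KO) or blue (lower) and each median as a line. The list medians lie from 0.01 to 0.14, except that of the adhesion and guidance list at -0.48.

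The peaks nearest the boundary were not called. The last tested peaks below 40 Mb, assigned to Tex55 and Igsf11, had log2 fold changes of -0.93 and -0.19, and the first beyond it, both within the adhesion gene Lsamp, had 0.10 and 0.44.

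Total counts per library were 3384325, 1658436 and 1948041 in Opa1 KO, against 2134586, 1534394, 1706750 and 1951574 in WT. Summed CPM at peaks touching Treg markers Foxp3, Il2ra, Ctla4 and Ikzf2 was 849 to 884 in Opa1 KO and 826 to 873 in WT. No peak touched the Treg marker Tnfrsf18. Likewise, no peak touched Ms4a1 or Cd79a, which mark B cells. Peaks near a marker gene that did not touch it were not counted for any marker. Myeloid markers (1 of 3 with a peak) summed to 3.79 to 5.39 CPM in Opa1 KO and 3.16 to 6.77 CPM in WT, CD8 T cell markers to 25.0 to 36.1 CPM in Opa1 KO and 20.5 to 29.8 CPM in WT, and Klf1, the erythroid marker with a peak, to 2.16 to 15.2 CPM in Opa1 KO and 9.63 to 18.9 CPM in WT. The part of other cells in the differences above was not tested. The peak at the start of Opa1 (chr16:29579139-29579524) had 33.3, 29.1 and 42.6 CPM in Opa1 KO, against 36.8, 33.9, 37.3 and 37.9 CPM in WT, and since the deleted exons are not given it checks nothing about the deletion.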

How the data were processed

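The table the authors deposited holds whole-number counts per peak, not normalized, for 3 Opa1 KO and 4 WT libraries. Per the submitters' processing notes, the build was mm10 and the tools were bedtools 2.25.0, MACS2 2.1.1, SAMtools 1.9, Picard 2.9.4, BWA 0.7.16 and Trimmomatic 0.36. Not given in the sources used here were their settings, the way peaks were merged and any shift of reads for the transposase, which would move peak edges by a few bases. Between 78% and 86.3% of a library's counts were even. Coordinates are as the file gives them.

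The counts as deposited were fitted with edgeR 4.0.16 (R 4.3.3): filterByExpr by genotype (minimum count 10, minimum total 15), TMM scaling, robust quasi-likelihood tests without a block and Benjamini-Hochberg adjustment over all 38041 tested peaks at 0.05. The common biological coefficient of variation was 0.157. In data simulated from these libraries, this fit called 39.6% of 2-fold and 86% of 4-fold changes, and 5.93% of its calls were false. The 5 simulated draws gave 641 calls together, against 33 in the real data, and did not copy the excess of even counts. These shares may therefore not hold for the real fit. CPM means and SDs take WT replicates 2 and 3 as 1 sample, since a chi-square test of their halved counts gave p = 0.111 (0.0363 when rounded down), far above every other pair within a genotype. The tests keep them as 2 libraries.

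A peak was assigned to the gene it touched or else to the nearest within 100 kb (RefSeq, GRCm38.p6). The members and gene lists were chosen with earlier results of these data known. Peaks named are those called, the 10 next whose groups did not overlap, the deepest peak of each listed gene, the top peak of each list, the 2 on each side of the boundary and the 3 deepest; the Nrip1, Usp25, Mir155, Zdhhc23, Btg3, Cryzl1, Runx1, Ets2 and second Vps26c, Cd200 and Gbe1 peaks described beyond these were named after their values were seen. The alternatives were other scalings, filters and tools, a replicate block, halved counts, the 2 alike WT libraries summed, and each library left out in turn. DESeq2 1.42.0 and limma 3.58.1 served as alternatives. A further marker gene is not reported here.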

Additional observations from a re-analysis of the deposited data

Results flagged for a closer look

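In each genotype's set of 4 or more libraries, which here means WT alone, 120 values, of named peaks and of the region's share of counts, were checked for a library far from the other 3 by Dixon's test of the gap over the range. The check marks about 1 set in 20 by chance, and it marked 5. At the Bbx peak from 50432176, WT replicate 4 had 107.5 CPM, against 115.1 to 115.6 in the other WT libraries. At the Alcam peak from 52452899, WT replicate 3 had 109.6 CPM, against 135.6 to 139.1. At the Ncam2 peak from 81365912, WT replicate 4 had 14.75 CPM, against 6.769 to 7.751. At the Setd4 peak from 93574492, WT replicate 1 had 19.86 CPM, against 28.3 to 28.45, and at the Morc3 peak from 93831953 it had 46.99 CPM, against 54.15 to 55.33. None of these peaks was called, and their cause was not tested.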

How the results depend on the processing

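Over 16 alternatives, no called distal peak changed direction, and 168 of the 200 values obtained kept their call. The Nrip1 peak from 76337478, the D16Ertd472e peak and the Mir125b-2 peaks from 77644379 and 77645009 were called in every alternative that tested them. The distal counts of 6 higher and 7 lower became 2 to 6 higher and 4 to 7 lower when each library was left out. Without Opa1 KO replicate 1, 2 higher and 4 lower remained, and without Opa1 KO replicate 3, 5 higher and 4 lower, in both cases all among the 13. The 33 calls over all peaks became 60 when peaks needed a mean count of 20 or more, 55 with limma-voom, 77 with counts halved, and 15 to 43 when each library was left out (15 without Opa1 KO replicate 1, 16 without Opa1 KO replicate 3 and 18 without WT replicate 1). With replicate numbers as a block, 13 peaks were called in all and 4 higher and 5 lower in the region, all 9 among the 13. Deviations from the genotype mean in same-numbered libraries had correlations of 0.011, -0.012 and 0.004. Differently numbered ones had -0.038 to 0.029. Libraries of a genotype differed by little more than counting noise, so these correlations cannot show whether the numbers pair libraries. The Cd200 call was lost in 9 of 16 alternatives, the Bach1 call in 7 of 14, the Dscam call in 5 of 16 and the call of the Mir125b-2 peak from 77643867 in 5 of 14. The Vps26c, Mir99ahg and 76336924 Nrip1 calls were lost without Opa1 KO replicate 1, the Gm31613 call without Opa1 KO replicate 3, and the Gbe1 and Mir99ahg calls with limma-voom. The cause was not tested. Of 105 uncalled peaks, 4 were called in some alternative. In the simulated draws the main fit called 16.8% of 1.5-fold changes, a share that may not hold for the real fit. In the real data the Cd200, Gm31613 and Dscam peaks were called with changes under 2-fold (log2 fold changes 0.69, -0.79 and -0.93).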

Other observations

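Another 2 gene neighbourhoods outside the lists had several sites that went mostly in 1 direction. Cd200r3, a gene of the CD200 receptor family, had 11 tested peaks, of which 10 were above 0 and 4 had all Opa1 KO libraries above all WT libraries, beside 4.85% of all tested peaks. Its peak at 45021523 had 17.3, 16.4 and 19.4 CPM in Opa1 KO, against 8.72, 14.2, 2.41 and 10.0 CPM in WT (log2 fold change 1.01). Scaf4, which encodes a factor of transcription termination, had 7 tested peaks, of which 2 were above 0. It had 3 peaks with all Opa1 KO libraries below WT and 1 with all above, beside 4.51% and 4.85% of all tested peaks. Its peak at 90331049 had 4.93, 6.32 and 3.24 CPM in Opa1 KO, against 10.7, 13.5, 10.2 and 10.0 CPM in WT (log2 fold change -1.19). No peak of either gene was called, and both genes were chosen after their values were seen.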
